A study of Caenorhabditis elegans with 2 samples.

Results

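The HSP70 family of Caenorhabditis elegans was described here through the places where a tagged fusion of the tag-97 product was found on chromatin. The family was taken as 8 of the 19985 protein-coding genes of the WBcel235 (ce11) gene models. F44E5.4, F44E5.5 and hsp-70 were classed as heat-inducible, and hsp-1, hsp-3, hsp-4, hsp-6 and hsp-110 as constitutive. Constitutive here means not chiefly heat-inducible, so a member induced by another stress, such as hsp-4, is still counted there. A chromatin region was assigned to a gene when its summit lay between 1000 bp upstream of the annotated 5′ end and the end of the gene, a stretch called the window below. The windows of the 8 genes held 42 of the 118176 regions in the joint ranking of both replicates. The genes were picked with their signals already known, so the signals are given as a description, without a test.

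Chromatin immunoprecipitation and sequencing was done on whole animals of strain OP719 at the L4 larval stage, aged 66 hours, in 2 biological replicates of 1 group. These animals carried the transgene wgIs719, in which tag-97 is joined to TY1, EGFP and 3xFLAG tags and accompanied by unc-119(+), in an unc-119(tm4063) background. Populations had been synchronised by bleaching and starvation as L1 larvae, chromatin was sonicated to 200 to 800 bp, and the fusion was recovered with an antibody against GFP. For the target of the insertion the labels give svh-5, here assumed to be the same gene as tag-97, and they do not say in which cells the fusion was made. Both replicates share the strain, the transgene and the stage, and neither heat-shocked animals nor a control immunoprecipitation were analysed here.

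HSP70 proteins are chaperones that bind and release unfolded stretches of other proteins in a cycle driven by ATP. J proteins stimulate the ATPase step and nucleotide exchange factors, among them HSP110 and BAG proteins, reset it. Some family members are made at all times, whereas others are switched on by heat through heat shock factor, HSF-1, which binds arrays of the inverted unit GAA known as heat shock elements. Separate HSP70 proteins serve the cytosol, the endoplasmic reticulum and the mitochondrion.

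The sequence that carries the main finding is the shared promoter of the divergent genes F44E5.4 and F44E5.5, which are transcribed away from each other. Their annotated 5′ ends were separated by 350 bp (II:11759312-11759661). A single immunoprecipitated region, II:11759282-11759577, covered most of that gap. The part of it outside the gene models, II:11759312-11759577, is printed from the reference genome on the plus strand, so F44E5.4 begins to its left and F44E5.5 to its right. The promoter of hsp-1 (IV:17278709-17278958, plus strand) is shown as that of the constitutive member with the strongest signal. The promoter of hsp-4 (II:7352646-7352895, minus strand) is shown as that of a member serving the endoplasmic reticulum. Each promoter is the 250 bases before the annotated 5′ end, read in the direction of transcription. Unlike the F44E5.4 and F44E5.5 stretch, these promoters were not cut by region. The strongest hsp-1 region, IV:17278427-17278722, reaches only the first printed bases of its promoter. The strongest hsp-4 region, II:7353061-7353356, lies outside the printed bases. Capitals mark GAANNTTC, a heat shock element of 2 units.

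F44E5.4 and F44E5.5: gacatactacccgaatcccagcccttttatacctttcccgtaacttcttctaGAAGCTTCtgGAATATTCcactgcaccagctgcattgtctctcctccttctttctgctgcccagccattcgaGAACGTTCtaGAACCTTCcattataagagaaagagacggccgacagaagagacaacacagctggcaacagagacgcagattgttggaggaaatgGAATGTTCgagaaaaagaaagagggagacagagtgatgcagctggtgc

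hsp-1: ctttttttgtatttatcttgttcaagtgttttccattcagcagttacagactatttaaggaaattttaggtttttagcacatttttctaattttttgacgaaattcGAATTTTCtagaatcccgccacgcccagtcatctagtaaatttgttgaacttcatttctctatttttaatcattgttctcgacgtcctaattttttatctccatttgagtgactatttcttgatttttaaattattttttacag

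hsp-4: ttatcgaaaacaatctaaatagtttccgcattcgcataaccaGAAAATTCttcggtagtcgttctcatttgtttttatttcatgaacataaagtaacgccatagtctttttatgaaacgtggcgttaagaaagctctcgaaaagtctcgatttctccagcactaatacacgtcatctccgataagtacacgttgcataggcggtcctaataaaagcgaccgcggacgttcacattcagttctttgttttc

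Chromatin signal at F44E5.4 and F44E5.5 stood far above that at any other HSP70 gene. The region between them had a signal of 264 in the joint ranking, with 133.0 in replicate 1 and 129.6 in replicate 2. The signal is the value the authors deposited for each region, on an unstated scale, and it is used here to order regions within a list. At the other 6 genes the highest joint signals lay between 37.3 and 49.8. In each replicate's own list their highest signals were 9.89 to 30.8 in replicate 1 and 21.3 to 31.96 in replicate 2, so neither range reached the value of the divergent genes.

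**Figure D1:**
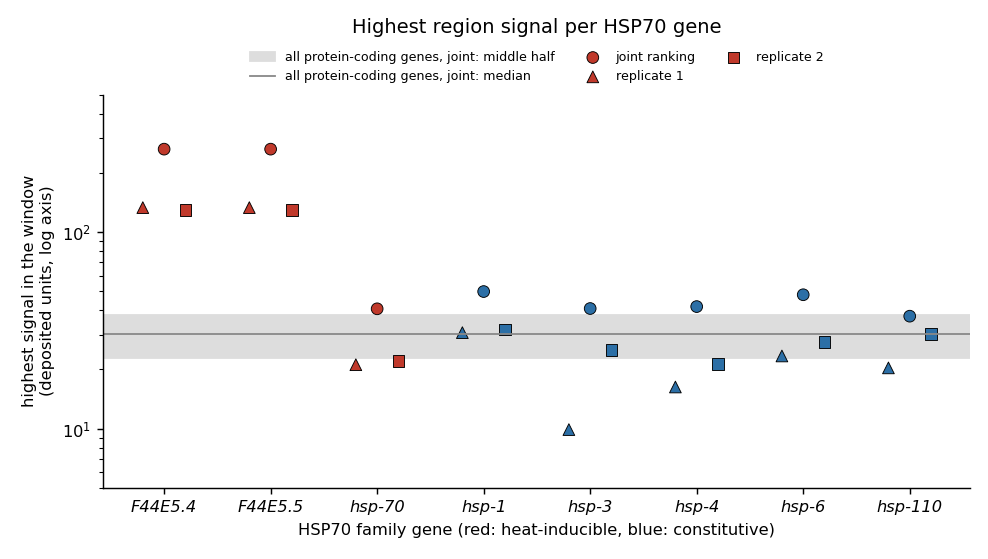
Highest region signal in the window of each HSP70 gene (deposited units, log axis) in the joint ranking (circles) and in the own lists of replicate 1 (triangles) and replicate 2 (squares), red for heat-inducible and blue for constitutive genes. The grey band spans the lower to the upper quartile of all protein-coding genes in the joint ranking, 22.9 to 37.7, and F44E5.4 and F44E5.5, which share 1 region, sit at 264 in the joint ranking while the other 6 genes sit between 37.3 and 49.8.

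The region between the divergent genes was held by every thresholded list, and no region of another member was in any of them. The lists were thresholded on the irreproducible discovery rate (IDR), which is low for regions that hold their rank between inputs. In the joint list of 321 regions, 2 of the 8 members had a region, through the 1 region they share, against 258 of all 19985 protein-coding genes (1.29%). In the conservative list of 182 regions the same 2 members had it, against 0.791% of all genes. The own list of replicate 1, with 70 regions, held it against 0.275% of genes, and that of replicate 2, with 71 regions, against 0.305%. These percentages are given as background, since the members were chosen from the same lists.

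Within the joint list and the conservative list this region had the highest signal. The next signal in the joint list was 244.9, in the window of mog-4. The region between the divergent genes ranked 2 of 70 in the own list of replicate 1 and 1 of 71 in that of replicate 2. Among all 118176 ranked regions 9 had a higher signal, and 0 of those 9 were in the joint thresholded list. Its IDR was 9.29e-05 in the joint ranking, 4.76e-05 in the ranking within replicate 1 and 0.000185 in that within replicate 2.

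The replicates both placed the summit in the gap, and the region was wider in replicate 2. The summit was at 11759462 in replicate 1 (II:11759403-11759513, 111 bp wide), 151 bp upstream of F44E5.4 and 200 bp upstream of F44E5.5. It was at 11759427 in replicate 2 (II:11759297-11759556, 260 bp wide), 116 bp and 235 bp upstream of the same 5′ ends. The joint summit, at 11759430, lay 119 bp upstream of F44E5.4 and 232 bp upstream of F44E5.5, and the region reached 30 bp into F44E5.4 while ending 85 bp short of F44E5.5. The larger replicate signal was 1.027 times the smaller, against a median of 1.342 over the 320 joint regions with both values, of which 15 others had a ratio as small. Replicate signals were not scaled to each other here.

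**Figure D2:**
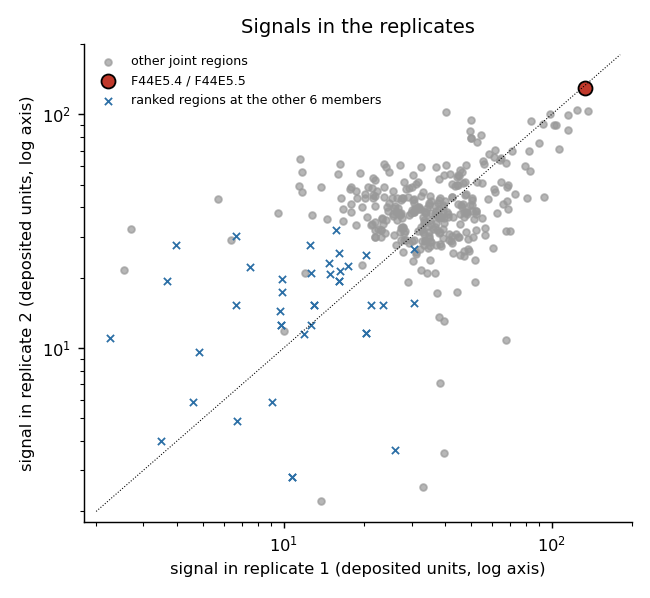
Signal in replicate 2 against replicate 1 (deposited units, log axes) for the joint thresholded regions (grey), the F44E5.4 and F44E5.5 region (red) and the ranked regions at the other 6 HSP70 genes (crosses), with a dotted line of equal signal. The red point, at 133.0 and 129.6, lies near the line at the upper end, and the crosses lie at 31.96 or below in both replicates.

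Gaps between divergent genes held a region at a share near that of gene windows in general. Of 1746 pairs of protein-coding genes with divergent 5′ ends at most 1000 bp apart, 27 had a joint thresholded summit in between (1.55%). The F44E5.4 and F44E5.5 pair was among them. Of all gene windows, 1.29% held a joint thresholded summit. A promoter, taken here as 1000 bp upstream to 200 bp downstream of a 5′ end, held such a summit at 151 protein-coding genes (0.756%). The same 2 HSP70 genes are counted in that number, and their promoter signal was above that of 99.99% of genes.

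The gap between the genes was rich in heat shock elements. The region held 7 matches to the 3-unit heat shock element, in which any 2 bases and a further unit follow GAANNTTC on either strand. These matches overlap one another and form 3 clusters. One cluster began 71, 66 and 61 bp before the summit, the next began 1, 6 and 11 bp after it, and a lone match began 100 bp after it. The capitals in the printed sequence show the 5 two-unit matches, which lie inside these clusters. The region also held 1 match to TATAAA, the TATA box, and 1 to GAGAGA. Matches to CACGTG, to the endoplasmic reticulum stress element TGACGTGG and its part CCACG, to GGCCTA or CTAGGC, and to the words GTACAC and GGCCAC and CTGCGC, numbered 0. These last 5 words came from earlier work on these lists.

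Most joint regions lacked the 3-unit element. Of the 321 joint regions, 12 held the 3-unit element (3.74%) and 64 the 2-unit element (19.9%). Promoters of all protein-coding genes, from 250 bp before to 50 bp after the 5′ end, held them at 1.97% and 18.5%. All ranked regions were not searched for these elements. The GC content of the region between the divergent genes was 46.6%, against medians of 42.6% for joint regions and 37.5% for all ranked regions. Part of the gap was close to symmetric. Its sides of 175 bp were each read away from the centre and aligned locally. In the best-matching stretch, 109 of 123 alignment columns were identical, and the rest of each side was left unaligned. TATAAA began 31 bp before F44E5.4 and 41 bp before F44E5.5.

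The promoters of other HSP70 genes also held heat shock elements, yet no thresholded region. In a window of 250 bp before to 50 bp after the 5′ end, the 3-unit element was present at 393 of 19985 genes (1.97%) and at 5 members, namely F44E5.4, F44E5.5, hsp-70, hsp-1 and hsp-110. Each divergent gene had 7 matches, drawn from the same gap and in part shared, whereas hsp-70 had 1 at 73 bp upstream, hsp-1 had 1 at 144 bp upstream and hsp-110 had 2 at 237 and 115 bp upstream. The 2-unit element was present at 18.5% of genes and at 6 members, hsp-4 being added. Widening the window to 500 bp before and 100 bp after brought in hsp-6, with the 3-unit element at 3.83% of genes.

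Across all genes, 10 of the 393 promoters with a 3-unit element held a joint thresholded summit (2.54%), against 53 of the 19592 without one (0.271%). The 10 include F44E5.4 and F44E5.5 through their 1 region, so the difference rests in part on the members themselves, and it was not tested. Also among the 10 were bag-1, an HSP70 exchange factor gene, with a signal of 103 and ahsa-1, whose relatives activate HSP90, with a signal of 58.3 at a region shared with C01G10.7. The rest were W04C9.4 (133.8), F25H9.7 (118.2), tmem-107 (86.5), Y22D7AL.10 (86.0) and lmtr-3 (64.4). The gene ahsa-1 was singled out after its value was seen. In the wider window the counts were 17 of 766 (2.22%) and 85 of 19219 (0.442%).

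Over all promoters in the narrower window, TATAAA was present at 37.9% of genes, GAGAGA at 21.8% and CCACG at 21.6%. The full endoplasmic reticulum stress element TGACGTGG was at 0.886% of genes and 0 members, and CACGTG was at 5.81% and 0 members. The words from earlier work ranged from 3.98% for CTGCGC to 7.39% for GTACAC. No match of the letters in these windows says nothing about binding of a factor.

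Most sequence in the windows of F44E5.4 and F44E5.5 occurs more than once in the genome. Whether this limited the regions that could be called there was not tested. Their coding sequences, of 1935 bp each, were identical, with 0 differences. Of the 31-base words in the F44E5.4 gene, 1.81% occurred once in the genome, and in the F44E5.5 gene 2.77% did, whereas in the median protein-coding gene every word did. In the gap between them 73.7% of words occurred once, and in the region 77.0%. Single-copy sequence in these windows was therefore found mainly in the stretch where the region was called. Over the whole windows 9.298% and 9.97% of words occurred once. By the share within the gene alone, 1.26% of genes had a lower value than F44E5.4 and 1.34% a lower value than F44E5.5.

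No ranked summit lay inside either divergent gene, and each window held 1 ranked region, 0.312 per kb. The median gene had 4 ranked regions, 1.24 per kb, and 1599 genes (8.001%) had exactly 1. Of the 291 genes with under 5% single-copy words, 264 (90.7%) had no ranked summit inside the gene, against 2351 of the 19694 others (11.9%). The part of repeated sequence in the number and place of regions at F44E5.4 and F44E5.5 was not tested. How the authors treated reads that map to several places was not stated in the labels or files used.

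**Figure D3:**
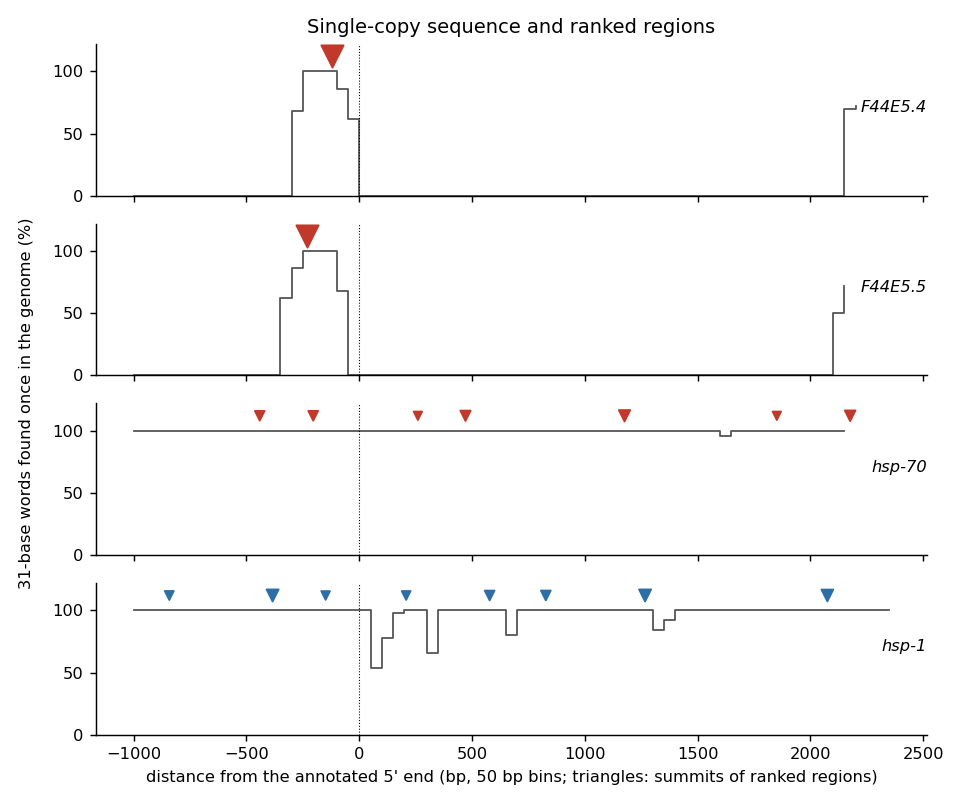
Percentage of 31-base words found once in the genome, in 50 bp bins along the windows of F44E5.4, F44E5.5, hsp-70 and hsp-1, against distance from the annotated 5′ end, with triangles at summits of ranked regions, larger for higher signal. In the windows of F44E5.4 and F44E5.5 single-copy words are found in the gap between the genes, where the 1 ranked region lies, and at the far ends of the genes, whereas those of hsp-70 and hsp-1 are largely single-copy and hold 7 and 8 ranked regions.

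The remaining heat-inducible member, hsp-70 (WBGene00002026, I:9320325-9322519, minus strand), encodes a cytosolic HSP70 and did not resemble the divergent genes in its signal. Its window held 7 ranked regions, and the highest had a signal of 40.7, with 7.52 in replicate 1 and 22.1 in replicate 2, at 1176 bp into the gene in coding sequence. Its strongest upstream region, 204 bp before the 5′ end, had a signal of 19.2, with 13.0 and 15.3 in the replicates. That promoter signal was above that of 46.27% of genes, near the median of 20.4, and the lowest IDR in the window was 0.123. The coding sequence of hsp-70 was 80.6% identical to that of F44E5.4, and 99.9% of the words in its window occurred once. All 7 summits also lie in the window of uggt-2, a gene annotated on the opposite strand, so these regions cannot be assigned to hsp-70 alone.

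The cytosolic constitutive member hsp-1 (WBGene00002005, IV:17278959-17281330, plus strand) had the highest signal outside the divergent genes. Its strongest region lay 384 bp upstream, with a joint signal of 49.8, 30.8 in replicate 1 and 15.6 in replicate 2. A region 1267 bp into the gene was nearly as high in the joint ranking, 49.7, but showed the opposite order, 15.7 and 31.96. Another region, 2075 bp into the gene, had a joint signal of 46.1 with closer replicates, 30.5 and 26.7. Its IDR of 0.0277 was the single one at or below 0.05 among the regions of the 6 genes, a level reached by 859 of all 19985 genes (4.3%). With that looser level hsp-1 joins F44E5.4 and F44E5.5, making 3 members with a region.

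The endoplasmic reticulum members hsp-3 and hsp-4, both relatives of mammalian BiP, had coding sequences 77.7% identical to each other and similar highest signals. At hsp-3 (WBGene00002007, X:6089028-6092124, minus strand) the strongest of 5 ranked regions lay 20 bp upstream, with a joint signal of 40.8 and matched replicate signals of 20.3 and 25.1. The own list of replicate 1 had no summit of this region in the window, so its highest value for hsp-3 was 9.89, the lowest of any member. At hsp-4 (WBGene00002008, II:7350112-7352645, minus strand), which is induced by unfolded proteins in the endoplasmic reticulum, the strongest of 5 regions lay 564 bp upstream, at 41.7, with 16.3 and 21.3 in the replicates. Their lowest IDR values were 0.193 and 0.157.

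Mitochondrial hsp-6 (WBGene00002010, V:4824124-4826760, minus strand) had the highest median signal over its regions among the 6 genes, 40.5 over 7 regions. Its strongest region, 1520 bp into the gene, had a joint signal of 47.9, with 16.08 and 25.5 in the replicates and an IDR of 0.0785. The strongest upstream region had 44.1, with 17.3 and 22.4, and lay 694 bp before hsp-6 but 94 bp inside the neighbouring gene C37H5.5. The regions 187 bp and 2370 bp into hsp-6 also fell in the windows of C37H5.5 and adss-1.

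The HSP110 gene hsp-110 (WBGene00016250, III:8443910-8446909, minus strand), whose product acts as an exchange factor for HSP70, had the most ranked regions, 9, and the lowest highest signal. Its window was 4000 bp long, and per kb it held 2.25 ranked regions, against 2.37 at hsp-1. The strongest region lay 248 bp upstream, with a joint signal of 37.3 and replicate signals of 6.64 and 30.2, a wide gap between the replicates. It was also 196 bp upstream of rpn-3, a proteasome subunit gene on the other strand, and 62 bp upstream of the noncoding RNA gene C30C11.14. Neighbouring windows overlapped further: in all, 4 of the 9 regions fell in the window of rpn-3 and 2 in that of ufbp-1.

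**Figure D4:**
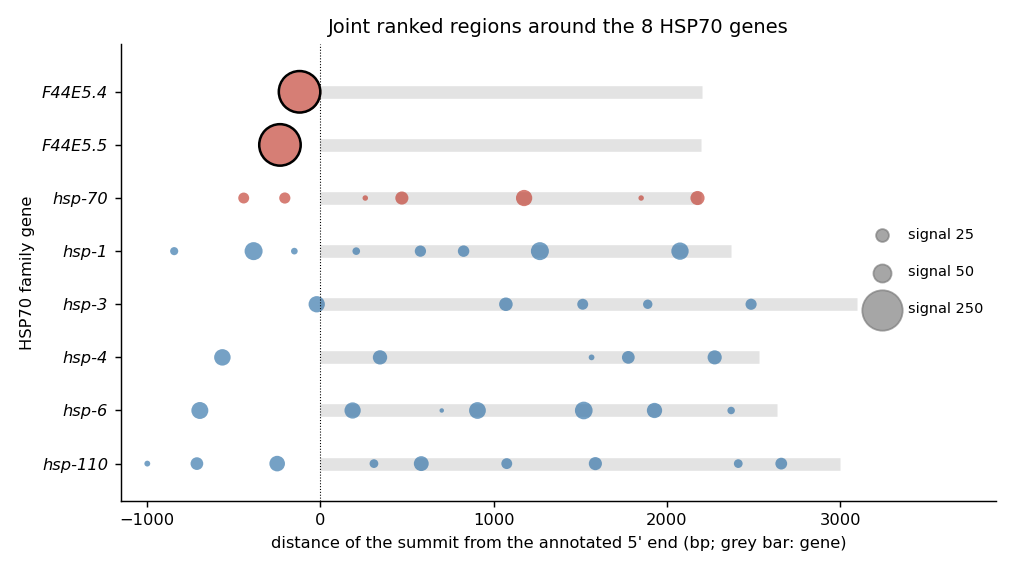
Summits of the joint ranked regions along each HSP70 gene, by distance from the annotated 5′ end, with dot area proportional to joint signal, grey bars for the genes, and a black outline for the region in the joint thresholded list. F44E5.4 and F44E5.5 have 1 large dot each, the same region, upstream of the gene, whereas the other 6 genes have 5 to 9 small dots, upstream and inside the gene.

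Over the 6 genes other than F44E5.4 and F44E5.5, ranked regions lay both upstream and inside the genes. Of 41 regions, 11 lay upstream, 24 in coding exons, 3 in untranslated exons and 3 in introns. The median joint signal was 24.8 upstream and 23.2 inside the genes, with a range of 3.07 to 49.8 over all 41. Replicate 2 gave the higher value at 27 of the 40 regions with both replicate signals, although some neighbouring regions share 1 matched pair of values. The share over all ranked regions was not counted. Over all regions of the replicates' own ranked lists, the median signal was 10.2 in replicate 1 and 14.2 in replicate 2. The ranked regions farthest upstream within the window were one 997 bp upstream of hsp-110, at 5.28, and one 842 bp upstream of hsp-1, at 10.1. Just outside it were regions 1458 bp upstream of hsp-1, at 57.9, and 1535 bp upstream of hsp-6, at 14.4. The first of these was stronger than any of the 41, and it is not in the joint thresholded list.

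Heat-inducible and constitutive members differed in their medians through F44E5.4 and F44E5.5. The median highest joint signal was 264 for the 3 heat-inducible genes, with a range of 40.7 to 264, and 41.7 for the 5 constitutive genes, with a range of 37.3 to 49.8. The value of hsp-70 fell inside the constitutive range, so the groups overlap, and its promoter signal of 19.2 fell below it. The difference of medians was 222, and it became 110.5 when the divergent genes, which share 1 region, were counted as 1 locus. In replicate 1 the medians were 133.0 and 20.4, and in replicate 2 they were 129.6 and 27.6.

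The order of the genes below the divergent pair was not stable between replicates. In the joint ranking it ran from hsp-1 through hsp-6, hsp-4, hsp-3 and hsp-70 to hsp-110. The own list of replicate 1 placed hsp-1 (30.8) first, then hsp-6 (23.4), hsp-70 (21.1), hsp-110 (20.4), hsp-4 (16.3) and hsp-3 (9.89). The own list of replicate 2 again placed hsp-1 (31.96) first, but then hsp-110 (30.2), hsp-6 (27.6), hsp-3 (25.1), hsp-70 (22.1) and hsp-4 (21.3). Apart from the first place of hsp-1, the order thus changed from one replicate to the other. The joint signal at the divergent genes was 5.30 times that at hsp-1 and 7.07 times that at hsp-110, and within the replicates the ratio to hsp-1 was 4.32 and 4.05.

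Set against all protein-coding genes, 6 members lay in the upper part of a broad distribution. A ranked region was present in the window of 93.7% of genes, and the median highest signal was 30.2. The share of genes with a lower value was 94.31% for hsp-1, 92.91% for hsp-6, 84.45% for hsp-4, 82.5% for hsp-3, 82.24% for hsp-70 and 73.92% for hsp-110. In replicate 1 alone hsp-3 was above 27.05% of genes, so its place was the least stable. Members have wider windows than the median of 3026 bp, from 3195 to 4097 bp, which gives more room for a high value.

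**Figure D5:**
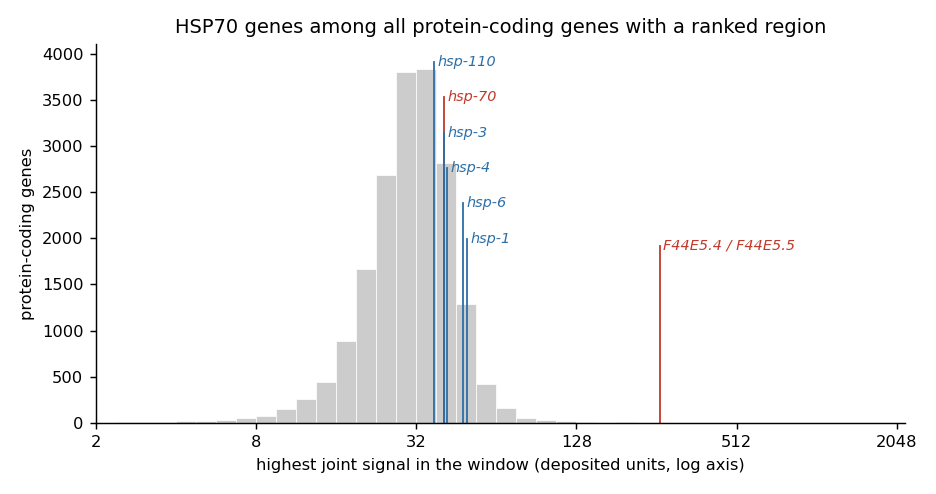
Number of protein-coding genes by highest joint signal in the window (deposited units, log axis), with lines at the HSP70 genes, red for heat-inducible and blue for constitutive; line heights only separate the labels. Lines of 6 members stand between 37.3 and 49.8, on the upper side of the distribution, and that of F44E5.4 and F44E5.5 stands apart at 264.

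The genes nearest to each member by highest joint signal were taken over all 19985 genes. At the top, mog-4 followed the divergent genes at 244.9. Around hsp-1 were M01G12.14 (49.8) and wrt-3 (49.7), and around hsp-6 were Y32B12B.2 and Y57G7A.5, both at 47.9. Those around hsp-4 were lron-1 and ttx-1 (41.7), those around hsp-3 were zmp-3 and tex-2 (40.8), and those around hsp-70 were K05G3.2 and tag-131 (40.7). Next to hsp-110 were clec-232 and rpn-3 (37.3), the latter through the same region.

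The coding sequences of the family were compared to describe the gene set. No unrelated gene was aligned, so the values do not test the family label. Identity over aligned positions ranged from 55.3%, between hsp-70 and hsp-110, to full identity over 1935 positions, between F44E5.4 and F44E5.5. F44E5.4 was 66.5% identical to hsp-1, 62.1% to hsp-3, 62.6% to hsp-4 and 59.9% to hsp-6. The coding parts held 2 exons in each divergent gene, 3 in hsp-70, 4 in hsp-1, hsp-3 and hsp-6, and 6 in hsp-4 and hsp-110.

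Other genes of the HSP70 system had regions at a higher share than genes in general. Of 72 listed genes outside the family, 7 had a joint thresholded region in the window (9.72%), against 1.29% of all protein-coding genes. The list was drawn up with results of these data known, so the difference is a description. It covered other superfamily members (1 of 4), transcription factors and their regulators (0 of 12), J proteins (3 of 29), exchange factors and cochaperones (1 of 9) and other heat shock protein families (2 of 18). Their median highest ranked signal was 34.3, against 30.2 over all genes. Of the 72, 10 exceeded every HSP70 gene other than F44E5.4 and F44E5.5, and these 10 include the 7 with a joint thresholded region. The value to exceed was that of hsp-1, which was above 94.31% of all protein-coding genes.

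The strongest of the 7 was hsp-90, the cytosolic HSP90 gene, with a joint signal of 146.3 and replicate signals of 71.2 and 69.4, at 825 bp inside the gene. Next was the J protein gene dnj-28, with 132.6 at 129 bp upstream and 64.2 and 63.5 in the replicates. Both had close replicates and were in the own lists of each. The J protein gene dnj-13 had 104.6 at 222 bp upstream, and bag-1 had 103 at 182 bp upstream, with 47.8 and 45.8 in the replicates. The others were dnj-9 (86.2, 3646 bp into the gene), the mitochondrial chaperonin gene hsp-60 (86.0, 605 bp upstream) and the superfamily member T14G8.3 (64.6, 1449 bp into the gene). The hsp-60 region also lay in the narrower promoter window of Y22D7AL.10, so it cannot be assigned to hsp-60 alone. Restricting the window to the promoter left dnj-13, bag-1, dnj-28 and hsp-60, and the count fell from 7 to 4. The own thresholded list of replicate 1 held 3 of the listed genes, hsp-90, dnj-28 and bag-1, and that of replicate 2 held these and dnj-13.

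The listed regulators spanned a wide range of signals. The highest ranked signal was 50.8 at dve-1 and 46.6 at skn-1, above 94.91% and 91.7% of genes, and that of dve-1 exceeded every HSP70 gene other than F44E5.4 and F44E5.5. It was 42.4 at xbp-1, which encodes a factor of the endoplasmic reticulum stress response, and 35.1 at hsf-1, which encodes heat shock factor, above 85.47% and 67.14% of genes. The lowest was 21.04 at ddl-1, and ubl-5 had no ranked region. These genes were named after their values were seen. None of the 12 regulators was in the joint thresholded list.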

How the data were processed

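The authors deposited 8 region lists on the ce11 build, ranked or thresholded by IDR, covering each replicate alone, a ranking of one replicate against the other, and a joint ranking. The aligner and peak caller, not given in the sources used here, are not named, and with depth unknown no interval is printed. The deposited score grows with reproducibility in whole-number steps and was at least 830 in the joint thresholded list. The deposited signal is the authors' value per region on an unstated scale. The deposited −log10 of the global IDR was turned back into an IDR. Replicate signals came from the ranking of the replicates, whose columns were tied to a replicate by coordinates that recur in its own list. Of 114284 regions, the coordinates recurred for 80659 in replicate 1 and 61427 in replicate 2, and for 0 in the list of the other replicate. A matched replicate signal can therefore belong to a region that is not in that replicate's own list.

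Summits were placed in windows of the WBcel235 gene models (Ensembl release 115). Motifs were searched on both strands of the reference genome. Coding sequences were aligned globally, and the sides of the F44E5.4 and F44E5.5 gap locally. Python 3.11.15, NumPy 2.4.6, pandas 2.3.3, Biopython 1.88 and matplotlib 3.10.9 were used, and window assignment was tested on simulated data. Sequences are from the RefSeq copy of WBcel235, and 1 promoter sequence and the members' matches to the commoner motifs are not reported here. No test was made, because members and lists were chosen with earlier results of these data known. All members were named, as were protein-coding genes sharing their regions, listed pathway genes with a thresholded region, and genes next in signal. Genes with a 3-unit element and a joint thresholded summit were also named, but not every noncoding RNA gene sharing a region. The listed names numbered 79, of which 6 matched no gene, among them daf-21, an older name of hsp-90. Alternatives were other windows, lists, IDR limits, classes, motif rules and single replicates.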

Additional observations from a re-analysis of the deposited data

How the results depend on the processing

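Of 39 alternatives, 24 left the value within the stated tolerance and 15 moved it. The tolerance was a factor of 1.5 for counts, and 1 SD between the replicates' own values for signals, differences and ratios. A reversal was found 0 times, but only the class difference and the ratio could have reversed, since counts and signals have no direction. All members had a region, so leaving out genes with none could not change the class difference. The 2 members with a region stayed 2 in every window, list and replicate tried, except that an IDR of 0.05 in the joint ranking gave 3, with hsp-1 added. The count of ranked regions, 42, became 13 in the promoter alone. The 7 listed pathway genes became 4 in the promoter alone, 4 at an IDR of 0.001, and 3 to 4 with either replicate left out. The signal of 264 at F44E5.4 and F44E5.5 was 133.0 in replicate 1 and 129.6 in replicate 2, which are also the values with the other replicate left out. The class difference of 222 was 101.9 to 112.7 with a replicate left out and 110.5 with F44E5.4 and F44E5.5 as 1 locus. The ratio of 5.30 to the strongest other member was 4.56 in a window of 2000 bp upstream, where a region of hsp-1 at 57.9 enters, and 4.05 to 4.32 with a replicate left out. Single replicates are on their own signal scale. The cause of the remaining moves was not tested.

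No paired analysis was possible because there was 1 group. Limits are 2 replicates, unknown depth, a signal of unstated scale, gene models that overlap, and near-identical copies at F44E5.4 and F44E5.5.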
